A study of Mus musculus with 16 samples.

Results

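The Peg3 imprinted domain of mouse chromosome 7 was described by its 3 genes, Peg3, Usp29 and Zim1. Members were all CpGs from 2 kb upstream of the start to the end of each gene (GENCODE M21, mm10), which gave 173 of the 1203687 CpGs measured in every library. Peg3 (ENSMUSG00000002265.16, minus strand, chromosome 7, 6703892 to 6730431) and Usp29 (ENSMUSG00000051527.11, plus strand, 6730578 to 6967219) start 147 bases apart and point away from each other. Zim1 (ENSMUSG00000002266.17, minus strand, 6671269 to 6696450) lies beyond the far end of Peg3.

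Methylation was measured by target capture bisulfite sequencing (tcBS-seq), in which captured DNA fragments are converted so that an unmethylated cytosine is read as thymine. The 16 libraries came from immortalised mouse embryonic fibroblasts (MEFs) of sibling C57BL/6J embryos at E13.5, which were immortalised by serial passaging. MEF-1 was male and MEF-2 female, so sex, embryo and culture history cannot be told apart between the families. Each family had a parental library of the mixed culture, sequenced once, and 7 clonal lines (numbered 1 to 7), each grown from a single sorted cell. Clonal lines of a family share 1 parental culture, and p-values between families measure the spread between lines and not between animals.

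Libraries held 59243669 to 90633091 methylation calls, and the median coverage was 26 to 39 reads per CpG. Fibroblast promoters were checked by methylation within 500 bases of the gene start. The promoters of Vim and Fn1, which mesenchymal cells express, were at 0.478% to 3.64% in all libraries, whereas those of the pluripotency genes Pou5f1 and Nanog were at 52.4% to 77.9%. The single measured CpG at Thy1, a fibroblast surface marker, was instead at 63.6% to 100%, Cdh1 (epithelium) was at 6.12% to 28.5%, Epcam (epithelium) at 10.8% to 75.0% and Ptprc (blood) at 49.7% to 83.8%. Col1a1, Col1a2, Pdgfrb, Pecam1 and Cdh5 had 0 measured CpGs there.

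Genomic imprinting marks the allele of one parent with methylation in the germline, and the mark is kept through cell division in the body. In this domain the maternal copy of the shared Peg3 and Usp29 promoter carries the mark, and Peg3 (a zinc finger protein) and Usp29 (a ubiquitin-specific protease) are expressed from the paternal copy, whereas Zim1 (a zinc finger gene) is known for maternal expression. A locus with 1 marked and 1 unmarked copy is read at an intermediate level in bulk DNA, and these reads were not separated by allele.

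The stretches below carry CpGs described in the results, not all of which differed between the families. All were read 5′ to 3′ from the plus strand of GRCm38 (mm10). All lie within introns of their gene. In the first pair, from Peg3 intron 1 beyond the promoter, capitals mark the 11 letters of the YY1 motif (searched on both strands, allowing any letter at the third base of the run as printed) and, in the second of them, also the CpG with the lowest p outside the motif. YY1 is a zinc finger factor whose motif is repeated in this intron. The third stretch is the first cluster of promoter CpGs, with the measured CpGs in capitals. The fourth holds 3 copies of the hexamer TGCCGC (either strand, in capitals) that ZFP57, a factor needed to keep imprints, recognises when methylated. The fifth is a run of CG repeats in a Usp29 intron, with its measured CpGs in capitals.
Peg3 intron, chr7:6727291-6727336: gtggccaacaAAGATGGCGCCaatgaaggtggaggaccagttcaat
Peg3 intron, chr7:6727835-6727982: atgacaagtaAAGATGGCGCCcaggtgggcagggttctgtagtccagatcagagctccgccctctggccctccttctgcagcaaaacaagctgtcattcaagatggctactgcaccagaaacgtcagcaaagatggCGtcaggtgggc
Promoter cluster 1, chr7:6729161-6729333: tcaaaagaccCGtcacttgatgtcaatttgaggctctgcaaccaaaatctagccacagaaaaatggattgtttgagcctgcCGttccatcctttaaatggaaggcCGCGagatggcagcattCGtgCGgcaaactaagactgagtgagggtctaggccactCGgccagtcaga
Promoter cluster 2, chr7:6730052-6730182: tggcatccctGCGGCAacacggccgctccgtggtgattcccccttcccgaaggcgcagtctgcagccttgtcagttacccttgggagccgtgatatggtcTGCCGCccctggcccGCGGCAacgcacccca
Usp29 CG repeat, chr7:6940981-6941018: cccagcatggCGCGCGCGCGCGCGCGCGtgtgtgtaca

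The hexamer had 8 matches in the window around the Peg3 and Usp29 starts described next, and 5 of 34188 stretches of chromosome 7 of the same length (4148 bases) held as many. It was found in 21.9% of those stretches and in 11.6% of 32851 RefSeq promoters of GRCm38, those of Peg3 and Usp29 not among them. The YY1 motif had 4 matches in the window and 7 from the window to the outermost measured CpG of Peg3, and 0.720% of the stretches of that length held 1 or more. No hexamer match overlapped a YY1 match. A match of letters is no measure of binding.

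The shared promoter was set as all CpGs within 2 kb of the start of Peg3 or of Usp29, from 6728431 to 6732578, where 52 of the 136 CpGs of the reference were measured. Its level was the mean over the 52 CpGs of methylated reads divided by all reads. In the MEF-1 clonal lines 1 to 7 it was 61.4%, 61.3%, 50.3%, 54.1%, 47.3%, 55.9% and 52.5%, beside 56.3% in the parental library. In the MEF-2 clonal lines 1 to 7 it was 49.0%, 45.4%, 39.2%, 35.9%, 41.6%, 46.5% and 47.7%, beside 39.1% in the parental library. By this mean every line was at an intermediate level, but cluster 4 of its CpGs, described below, reached 96.3% in MEF-1 line 3. Only MEF-1 line 5 lay within the range of the MEF-2 lines, below MEF-2 lines 1 and 7.

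The MEF-1 lines averaged 54.7% ± 5.32 (SD, n = 7) and the MEF-2 lines 43.6% ± 4.84 (SD, n = 7), a difference of 11.1 percentage points (two-sided exact permutation test, p = 0.00175, where the smallest possible p was 0.000583). Within the families, the clonal lines were on average 1.58 points below their parental library in MEF-1 (exact sign-flip permutation test, p = 0.453, 5 of 7 lines lower) and 4.58 points above it in MEF-2 (p = 0.0781 by the same exact test, 6 of 7 lines higher, smallest possible p 0.0156). Neither departure passed the threshold in this window, but that of MEF-2 did in the window of 1 kb (6.68 points, exact sign-flip permutation test, p = 0.0312) and, by the same exact test, without MEF-2 line 4 (5.86 points, p = 0.0312) and with the median of CpG levels (5.52 points, p = 0.0469). It was 0.533 points with at least 20 reads (exact sign-flip permutation test, p = 0.766). The parental levels rest on a single library each. At the median depth of 29 reads in the window, a CpG at a level of 50% has a binomial SD of 9.28 points, which covers counting error only.

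**Figure D1:**
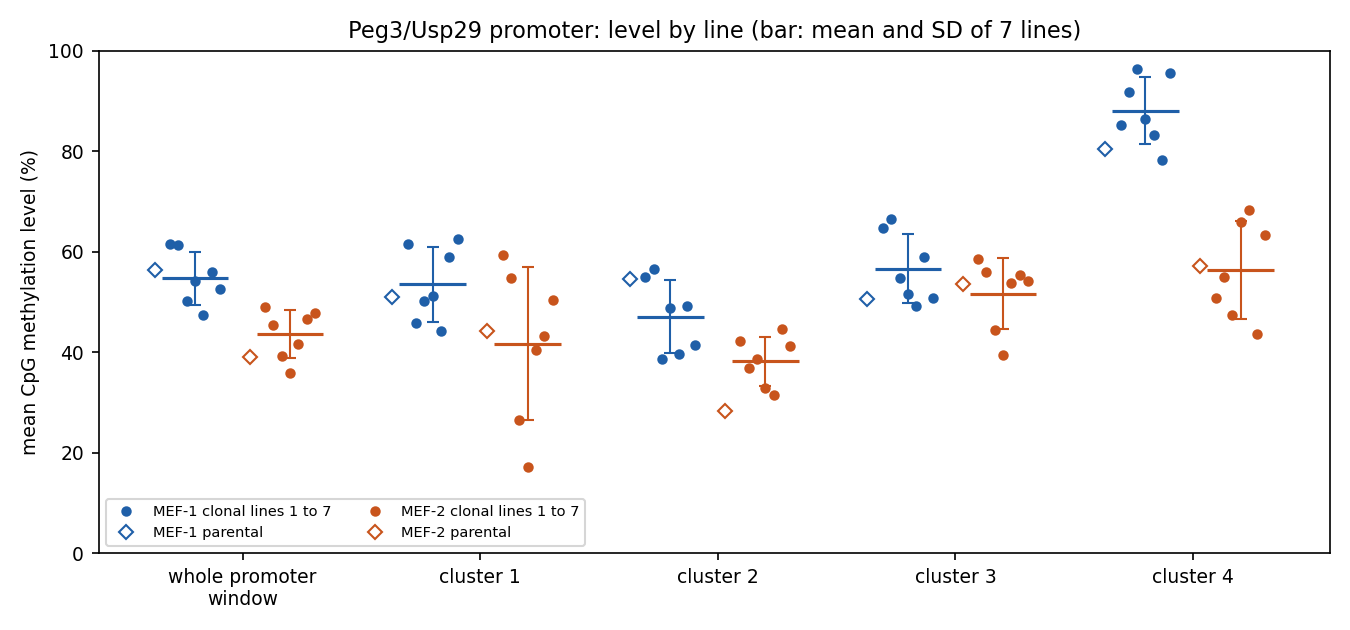
Mean CpG methylation level (%, vertical axis) of the whole promoter window and of its 4 clusters of CpGs, with 1 point per clonal line (blue MEF-1, orange MEF-2), open diamonds for the parental libraries and bars for the mean and SD of 7 lines. The families lie closest in cluster 3 and farthest apart in cluster 4, where the MEF-1 lines sit between 78.3% and 96.3% and the MEF-2 lines between 43.6% and 68.3%.

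The 52 CpGs fell into 4 clusters separated by gaps of more than 400 bases, which were set after the values were seen and are described without a test. Cluster 1 (7 CpGs, Peg3 intron, upstream of Usp29) averaged 53.5% ± 7.51 over the MEF-1 lines and 41.7% ± 15.2 over the MEF-2 lines (SD, n = 7 each). Its spread in MEF-2 came with line 4 at 17.2% and line 3 at 26.5%, whereas the other MEF-2 lines were at 40.5% to 59.4%. Cluster 2 (28 CpGs, Peg3 exon 1 and the adjoining intron) averaged 47.0% ± 7.29 for MEF-1 and 38.2% ± 4.88 for MEF-2. The MEF-1 parental library was at 54.7% there and the MEF-2 parental library at 28.2%, below each of its 7 clonal lines (31.4% to 44.6%).

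Cluster 3 (11 CpGs, Usp29 exon 1) averaged 56.6% ± 6.92 for MEF-1 and 51.7% ± 7.00 for MEF-2, and 0 of its CpGs passed the test between families given below. MEF-2 line 4 was again the lowest line (39.4%), and MEF-1 lines 1 and 2 were the highest (64.7% and 66.6%). Cluster 4 (6 CpGs, Usp29 intron) averaged 88.1% ± 6.66 for MEF-1 and 56.3% ± 9.69 for MEF-2, and the families did not overlap. MEF-2 line 4 was thus the lowest line of its family in clusters 1 and 3, but among the higher ones in cluster 4 (66.0%).

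**Figure D2:**
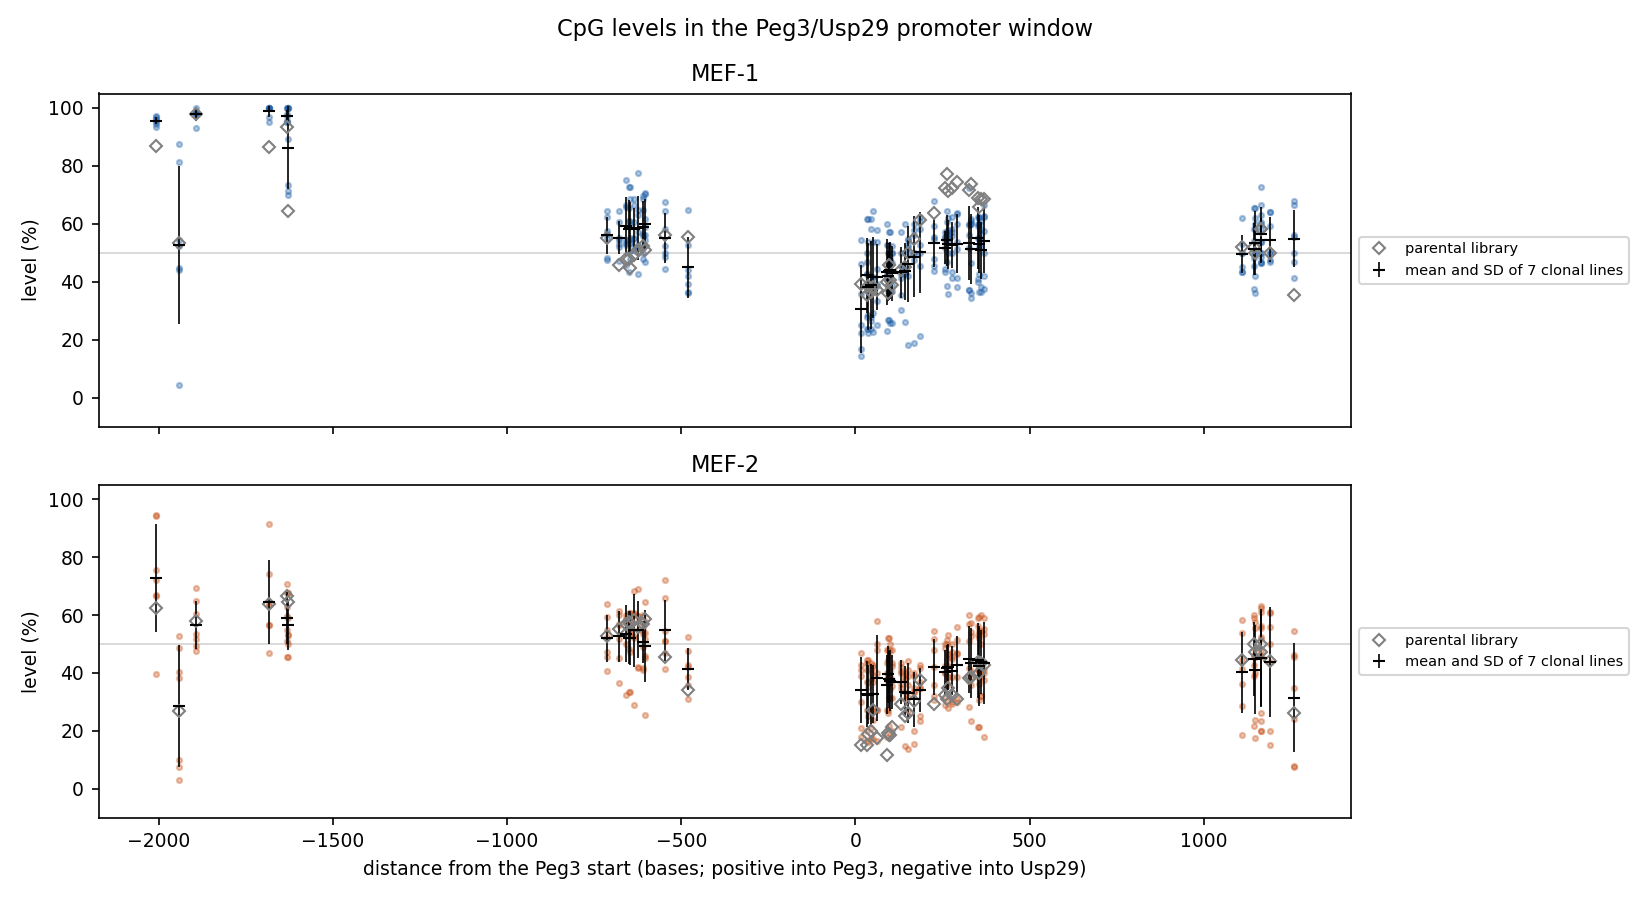
Level (%, vertical axis) of each promoter CpG against its distance from the Peg3 start in bases (positive into Peg3, negative into Usp29), with 1 dot per clonal line, black marks for the mean and SD of 7 lines and grey diamonds for the parental library. At the left, 4 of the 6 MEF-1 means of cluster 4 are above 90%, while the MEF-2 means lie between 28.6% and 72.8%.

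Single CpGs of the promoter were compared between the 7 MEF-1 and 7 MEF-2 lines by a quasi-binomial F-test on methylated and unmethylated counts, adjusted over all 1203687 CpGs (Benjamini-Hochberg, called at an adjusted p under 0.05). Of the 52 promoter CpGs 7 were called, all higher in MEF-1, against 20.2% of all CpGs measured (11.6% higher in MEF-1 and 8.53% higher in MEF-2). Of these, 5 were in cluster 4. The 3 with the lowest p were at 6732062 (97.3% ± 2.1 against 58.9% ± 9.0, adjusted p = 7.17e-06 by the quasi-binomial fit), 6732114 (98.9% against 64.6%, adjusted p = 0.00025) and 6732323 (97.8% against 56.7%, adjusted p = 3.61e-06). The promoter CpG with the highest mean over all 14 lines, 6732440, was at 95.6% ± 1.3 for MEF-1 and 72.8% ± 18.8 for MEF-2 (quasi-binomial adjusted p = 0.0199).

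The CpG nearest to both gene starts, 6730415 in the 5′ exon of Peg3 and 16 bases from its start, had the lowest mean of the window, 30.7% ± 15.3 for MEF-1 and 34.1% ± 11.3 for MEF-2 (quasi-binomial adjusted p = 0.732). The SD over all 14 lines, both families together, was smallest at 6731144 in Usp29 exon 1 (7.31 points, with family means of 56.0% and 52.0%) and largest at 6732372 in cluster 4, where the means were 52.7% and 28.6% and the SD over all 14 lines was 26.6. The 4 measured CpGs inside ZFP57 hexamers (6729287, 6730063, 6730155 and 6730168) were at 51.3% to 54.4% in MEF-1 and 40.8% to 44.8% in MEF-2, with quasi-binomial adjusted p from 0.110 to 0.441. Averaged over these 4 CpGs, single lines ranged from 38.7% to 60.1% in MEF-1 and from 24.8% to 54.4% in MEF-2.

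Each line was also compared with its own parental library, CpG by CpG, by Fisher's exact test. Between 0 and 3 of the 52 promoter CpGs were called per line, and between 3 and 15 of the 173 members (1.73% to 8.67%). Over all CpGs, the calls came to 1.49%, 5.53%, 4.81%, 1.34%, 1.54%, 4.95% and 4.54% in MEF-1 lines 1 to 7, and to 6.58%, 6.03%, 4.68%, 6.39%, 7.38%, 7.93% and 6.98% in MEF-2 lines 1 to 7. In MEF-1 lines 1 and 4 and MEF-2 lines 2 and 4, 0 promoter CpGs were called, and 2, 2, 0 and 13 of them had an unadjusted p under 0.05. MEF-2 line 3 had 14 members called, all lower than in its parental library. At the depth of these libraries smaller differences at single CpGs were not detectable.

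To compare the promoter with the rest of the domain, the distance of each CpG from 50% was averaged within a line. In the promoter it was 8.29 to 18.2 points over the clonal lines, and in the other 121 member CpGs 35.02 to 39.14 points. The rest was farther from 50% by 24.5 points on average, in 14 of 14 lines (exact sign-flip permutation test, p = 0.000122, the smallest possible). Of the 173 members 41 had a mean over the 14 lines under 10% (0 in the promoter), 21 of 90% or more (0 in the promoter) and 47 of 40% to 60% (36 in the promoter).

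The study scored a call as faithful where a clonal line was at 0 to 10%, 40 to 60% or 90 to 100%. Among CpGs at 10% to 90% in the parental library (50 of the promoter in MEF-1 and 52 in MEF-2), 36.5% to 73.1% of the promoter CpGs of a line met it. Over all other such CpGs the share was 55.5% to 66.0%. The promoter was lower by 1.98 points on average (exact sign-flip permutation test, p = 0.527, higher in 6 of 14 lines), which did not pass the threshold. The lines where it was higher were MEF-1 lines 2, 4, 5, 6 and 7 and MEF-2 line 6. This average thus joins the lines of both cultures, which mostly went opposite ways. Thinned to 10 reads, the difference was -8.09 points (exact sign-flip permutation test, p = 0.00769), and its sign changed with at least 20 reads (2.94), with wider windows (0.363) and at a parental level of 40% to 60% (9.68). MEF-2 line 4 had the lowest share in the promoter and MEF-2 line 6 the highest.

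Beyond the promoter, Peg3 had 19 measured CpGs, all in its intron 1. The MEF-1 lines averaged 90.3% ± 1.65 and the MEF-2 lines 68.5% ± 4.00 (SD, n = 7 each), with ranges of 87.1% to 91.9% and 62.3% to 72.0% that did not overlap. Usp29 beyond the promoter (66 CpGs, all intronic) averaged 51.6% ± 3.08 and 41.2% ± 4.55, and Zim1 with its upstream 2 kb (36 CpGs) 16.1% ± 2.18 and 11.6% ± 1.33. Apart from 6688734, the measured Zim1 CpGs lay between 6695888 and 6696785, around the start of a gene of 25182 bases. All 4 areas were higher in MEF-1 by exact permutation tests adjusted over the areas, with p = 0.00117 for Peg3, 0.00117 for Usp29, 0.00155 for Zim1 and 0.00175 for the promoter. In Usp29 the 9 CpGs of the CG repeat carried much of the difference. Without them (a choice made after the data were seen) the other 57 CpGs averaged 51.7% ± 2.20 over the MEF-1 lines and 46.3% ± 5.15 over the MEF-2 lines, a difference of 5.38 points instead of 10.4 (exact permutation test, adjusted p = 0.00874). The ranges of 48.5% to 54.5% and 35.6% to 51.2% then overlapped.

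In the part of Peg3 intron 1 beyond the promoter window, 8 of the 19 CpGs (42.1%) were called between families, all higher in MEF-1. Of all CpGs 20.2% were called and 11.6% were higher in MEF-1. The 3 with the lowest p were at 6727971 (98.3% ± 1.8 against 47.2% ± 8.6, quasi-binomial adjusted p = 9.13e-07), 6728115 (99.3% ± 1.2 against 46.4% ± 12.8, adjusted p = 6.37e-06) and 6727621 (93.8% ± 3.5 against 52.8% ± 6.9, adjusted p = 1.93e-05). They lay among CpGs such as 6727344, 6727577 and 6727669 whose family means were 96.8% to 99.4%. In the MEF-2 lines CpGs near full methylation thus lay among CpGs of lower level along 1 kb. The lowest MEF-2 means were 13.4% at 6728317 and 16.1% at 6727852. In the MEF-1 lines most of the same CpGs were near full methylation.

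The 2 measured CpGs inside YY1 motifs were singled out after their values were seen and are described without a test. At 6727308 the 7 MEF-1 lines were at 92.6% to 100%, and the MEF-2 lines 1 to 7 were at 42.5%, 54.8%, 41.9%, 94.1%, 41.7%, 50.0% and 35.7%. MEF-2 line 4 stood with the MEF-1 lines at this CpG. At 6727852 the MEF-1 lines were at 88.9% to 100% although their parental library was at 56.7%, and the MEF-2 lines were at 8.57%, 6.82%, 0%, 2.08%, 38.8%, 51.8% and 4.35% beside 38.5% in the parental library.

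**Figure D3:**
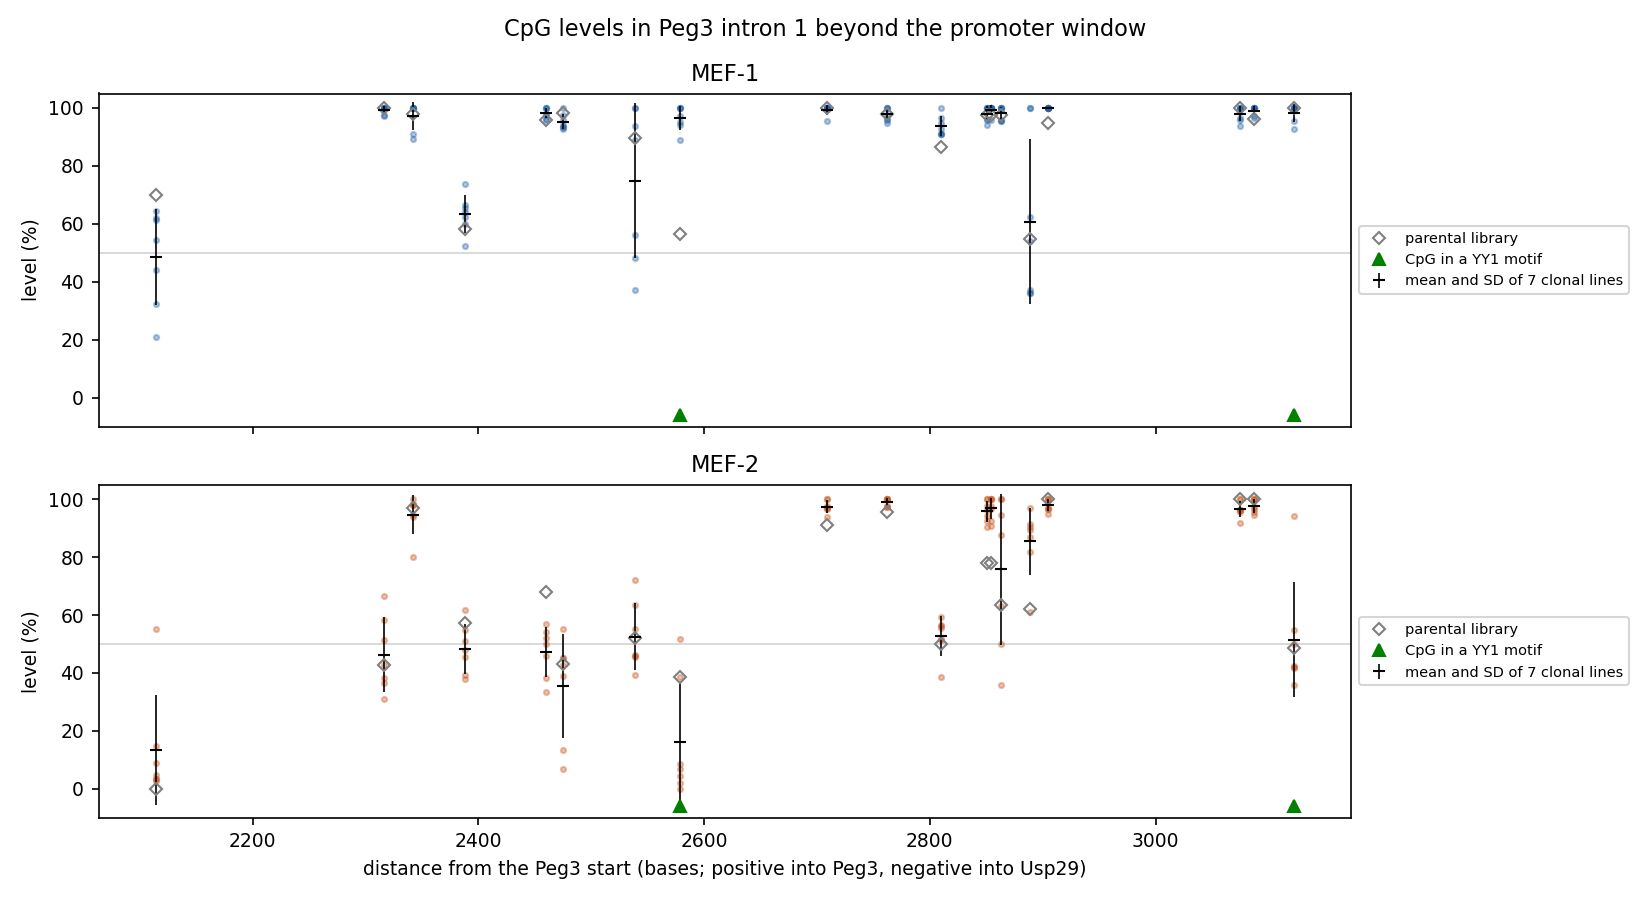
Level (%, vertical axis) of the 19 CpGs of Peg3 intron 1 beyond the promoter window against the distance from the Peg3 start in bases, with 1 dot per clonal line, black marks for the mean and SD of 7 lines, grey diamonds for the parental library and green triangles under the CpGs in YY1 motifs. Most MEF-1 means lie near 100%, while the MEF-2 means range from 13.4% to 98.9%, with CpGs above 90% among lower ones.

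In Usp29 beyond the promoter, 23 of 66 CpGs (34.8%, against 20.2% of all CpGs) were called, 20 of them higher in MEF-1. All 9 CpGs of the CG repeat, which share reads, were among them, and without the repeat 14 of 57 (24.6%) were called. The 3 with the lowest p were neighbours in the CG repeat, at 6940999, 6941001 and 6941003 (quasi-binomial adjusted p = 0.00018, 0.000241 and 0.000161). Over the 9 CpGs of the repeat, the MEF-1 lines 1 to 7 were at 49.1%, 77.1%, 25.8%, 51.2%, 60.3%, 43.0% and 52.0%, and the MEF-2 lines at 4.98% to 14.8%. The parental libraries, at 44.0% and 5.43%, lay with their families. The median depth in the repeat was 16 reads.

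In Zim1, 25 of 36 CpGs had a mean under 10% over the 14 lines, and 5 (13.9%, against 20.2% of all CpGs) were called. The CpGs around the start of the gene were unmethylated or nearly so in both families, and the called ones lay outside that stretch, among intermediate CpGs of which some were not called. At 6696263, inside the gene, the MEF-1 lines were at 44.1% ± 7.8 and the MEF-2 lines at 1.1% ± 3.0 (quasi-binomial adjusted p = 2.66e-05). At 6696742, upstream, they were at 52.9% ± 21.8 and 0.91% ± 1.55 (quasi-binomial adjusted p = 9.24e-05), and at 6696121 at 40.1% ± 10.2 and 9.2% ± 6.8 (quasi-binomial adjusted p = 0.000624). The next CpG upstream, 6696785, went the other way (8.7% ± 12.1 against 47.2% ± 10.8). Of 10 other annotated genes of the interval, Zim3 had 1 CpG among the members and the others 0.

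Coverage of chromosome 7 served as a copy number control, taken as the mean coverage of its CpGs divided by the median over chromosomes and set to 1 at the median MEF-2 line. It was 0.969 to 1.02 in the MEF-2 lines. In the MEF-1 lines 1 to 7 it was 0.832, 0.945, 0.816, 0.980, 1.03, 0.899 and 0.841, beside 0.993 in the MEF-1 parental library. Lines 1, 3, 6 and 7 of MEF-1 were thus lower by more than 0.1. The difference, MEF-1 minus MEF-2, was -0.0920 (exact permutation test, p = 0.0169). Paired by clone number, the replicate block gave p = 0.0625 for the same difference (exact sign-flip permutation test). Clone numbers pair no lines across families, so nothing is concluded from this block. Coverage does not say which parental copy differs in number, and the part of copy number in the promoter levels was not tested by allele.

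Without those 4 lines the promoter difference between families was 10.6 points (exact permutation test, p = 0.0333, the smallest that 3 against 7 lines allow being 0.00833). Within families, level and coverage gave Pearson r = -0.25 (exact permutation p = 0.576) and Spearman rho = -0.21 (exact permutation p = 0.662) in MEF-1, and r = -0.20 (exact permutation p = 0.677) and rho = -0.50 (exact permutation p = 0.267) in MEF-2, n = 7 each. Adjusted over both families, p for r was 0.677 in each by the same permutation test. Without the 2 lines farthest from the median coverage r was -0.07 and -0.40.

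Methylated and unmethylated reads per promoter CpG were each divided by the mean coverage of the library over all measured CpGs. This does not correct for the lowered chromosome 7 coverage of MEF-1 lines 1, 3, 6 and 7. Methylated reads came to 0.5005 ± 0.0405 for MEF-1 and 0.443 ± 0.0408 for MEF-2 (SD, n = 7 each, exact permutation test, adjusted p = 0.0227). Unmethylated reads came to 0.352 ± 0.0634 and 0.507 ± 0.0813 (exact permutation test, adjusted p = 0.00583). Both differences were smaller and missed the threshold in the window of 1 kb, at 0.0227 (exact permutation test, adjusted p = 0.395) and -0.0964 (exact permutation test, adjusted p = 0.140). The unmethylated difference also lost its call without those lines of lowered coverage, a setting added after the data were seen.

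**Figure D4:**
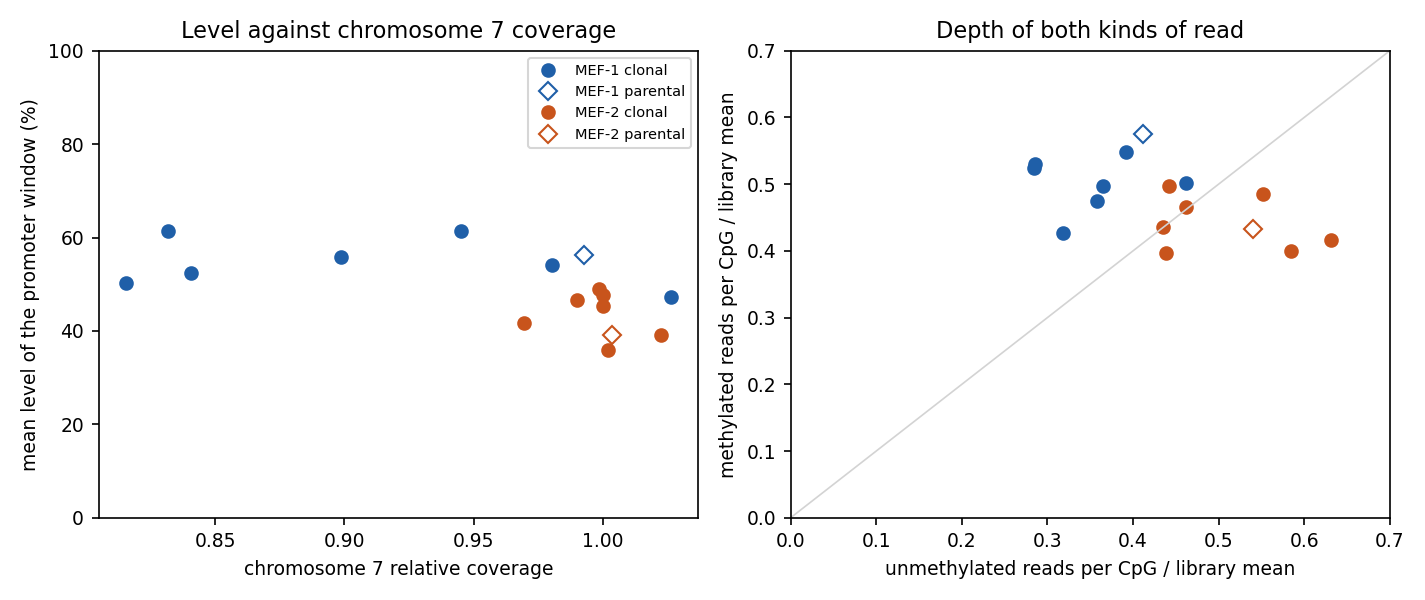
Left, mean level of the promoter window (%) against the relative coverage of chromosome 7, and right, methylated against unmethylated reads per promoter CpG, each divided by the library's mean coverage, with filled points for clonal lines, open diamonds for parental libraries and a grey line of equal depth. MEF-1 lines of low coverage (0.816 to 0.899) and of coverage near 1 overlap in level. Above the line of equal depth lie 7 of 7 MEF-1 lines and also MEF-2 lines 1, 2 and 7.

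Imprints elsewhere on chromosome 7 were read in the same libraries. Kcnq1ot1 (56 CpGs within 2 kb of the start of this imprinted antisense transcript) was at 50.6% ± 6.58 for MEF-1 and 38.9% ± 4.73 for MEF-2, higher in MEF-1 by 11.7 points. The stretch 2 to 5 kb upstream of H19 (29 CpGs), whose mark is paternal, was at 41.8% ± 8.13 and 46.7% ± 5.56. On average over the lines of both families, the Peg3 and Usp29 promoter was higher than Kcnq1ot1 by 4.38 ± 7.35 points (SD over 14 lines, exact sign-flip permutation test, adjusted p = 0.0901) and higher than H19 by 4.89 ± 11.6 points (exact sign-flip permutation test, adjusted p = 0.139), neither past the threshold. Both differences passed it in the window of 4 kb (13.7 and 14.2 points), with at least 20 reads (25.1 and 15.5 points) and with pooled reads (8.65 and 9.53 points). Both were smaller in the window of 1 kb. Apart from pooled reads, these settings averaged other sets of promoter CpGs than the 52. The window of 4 kb held 76, that of 1 kb 39, and 24 had at least 20 reads. Against H19 the families went opposite ways. The promoter was at 54.7% against 41.8% over the MEF-1 lines, but at 43.6% against 46.7% over the MEF-2 lines. The third imprint, at the start of Snrpn, had 0 measured CpGs, and its place was taken, after the data were seen, by the start of Snurf (19 CpGs, 66.0% ± 4.23 and 49.5% ± 2.66), where the promoter was lower by 8.60 points in a comparison that was not adjusted (exact sign-flip permutation test, p = 0.00183, higher in 3 of 14 lines).

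The lines at the ends of the promoter's range are given here for the other imprints, with no test. MEF-1 lines 1 and 2, the highest in the promoter, were at 53.0% and 44.2% in Kcnq1ot1, at 65.7% and 58.8% in Snurf (line 2 being the lowest of its family) and at 35.2% and 48.4% upstream of H19. MEF-2 line 4, the lowest in the promoter, was at 43.3% in Kcnq1ot1, 50.1% in Snurf and 44.7% upstream of H19. The 4 MEF-1 lines of lowered coverage, 1, 3, 6 and 7, were the lowest of their family upstream of H19 (35.2%, 32.6%, 45.3% and 32.2%). The same lines were the highest of their family in Kcnq1ot1 (53.0%, 58.7%, 58.8% and 50.2%, against 42.7% to 46.6% in the other MEF-1 lines). Both patterns were picked out after the values were seen, and their cause was not tested.

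**Figure D5:**
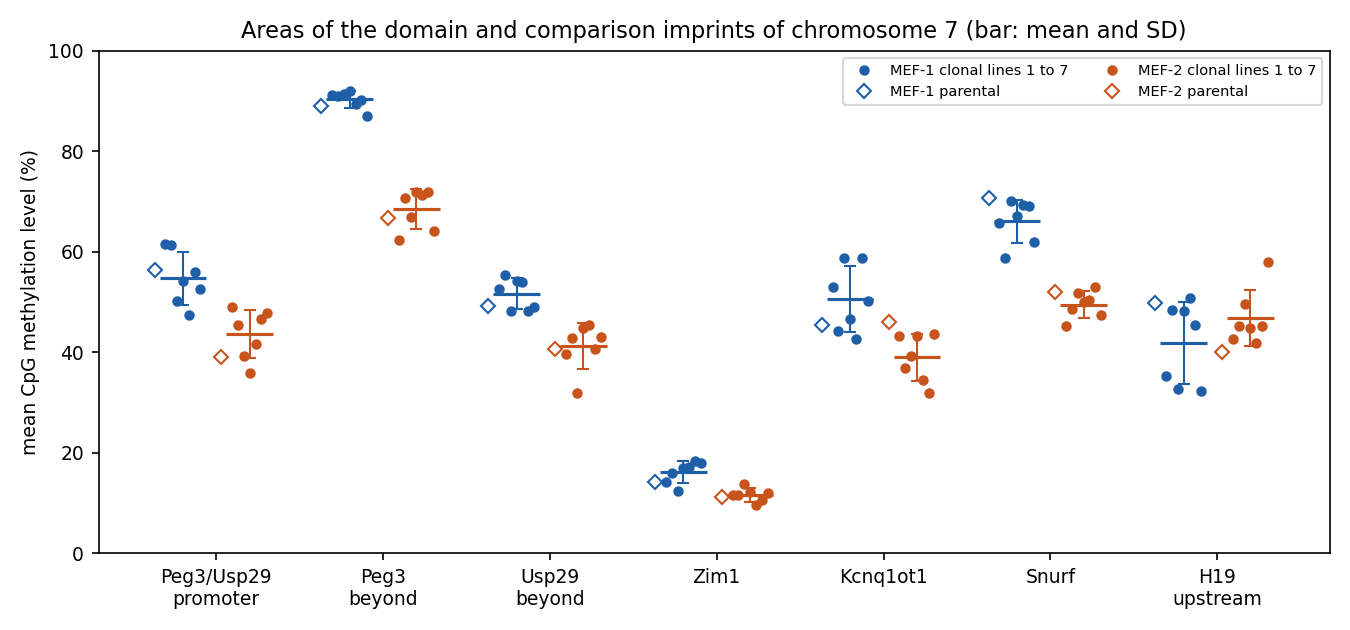
Mean CpG methylation level (%, vertical axis) of the 4 areas of the domain and of 3 comparison imprints of chromosome 7, with 1 point per clonal line, open diamonds for parental libraries and bars for the mean and SD of 7 lines. The MEF-1 lines are above the MEF-2 lines without overlap in Peg3 beyond the promoter, in Usp29 beyond the promoter (where they overlap once the CG repeat is left out) and in Snurf (58.8% to 70.2% against 45.3% to 53.0%), the MEF-1 mean is higher in Kcnq1ot1 by 11.7 points, and upstream of H19 it is the lower one.

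Of 10 further imprinted genes, 9 had CpGs within 2 kb of their start (Mest had 0). For 6 of them both family means lay between 40% and 60% (47.1% to 58.4%). Within MEF-1 the SD over lines was 5.32 points for the Peg3 and Usp29 promoter and 1.67 to 7.84 points for the 9 others, of which 6 were lower. The lowest were those of Nnat (1.67, family means of 91.6% and 88.5%) and Plagl1 (1.69, family means of 24.2% and 23.2%), both far from 50%. Within MEF-2 the SD was 4.84 points for the promoter and 1.28 to 7.30 points for the others, of which 4 were lower, a description with no test. Over all 14 lines, both families together, the SD was 7.53 points for the promoter, above that of 8 of the 9 others, in a measure that includes the difference between the family means. Inpp5f had the narrowest range (44.8% to 50.1% over the lines) and Mcts2 the highest SD (48.6% to 77.5%).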

How the data were processed

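DNA methylation was measured by tcBS-seq in 2 parental and 14 clonal MEF libraries. The authors captured fragments with RNA probes before bisulfite conversion, trimmed reads with Trim Galore 0.6.0, aligned them to mm10 with Bismark, left out reads of low mapping quality and combined both strands. The methods name no step against PCR duplicates. Deposited values are counts of methylated and unmethylated reads per CpG, with no normalization. The series table used here keeps CpGs that reached 10 reads in every one of the 16 libraries, and it covers 16 chromosomes (chromosomes 12, 18 and 19 were removed by the authors for shifted coverage). Its deposited methylated percent and its fidelity score (a fraction of the clonal lines) were computed by the authors. The fidelity scores of the members were equal to those recomputed here, and the percent was recomputed from the counts. Counts of 3729 CpGs of chromosome 7 were checked against the library tables, and 59664 of 59664 values were equal.

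Groups came from the labels. The members and gene lists were chosen with earlier results of these data known. Members took GENCODE M21 gene bounds, and sequences came from RefSeq's GRCm38. Between families, CpGs were tested by a quasi-binomial F-test (dispersion at least 1, checked on simulated data) over 1203687 CpGs, and by Fisher's exact test between each line and its parent, both with Benjamini-Hochberg adjustment. Levels of areas were compared by exact permutation or sign-flip tests, two-sided. Named CpGs were, by rule, those of the promoter with the highest and lowest mean and SD, those nearest to the gene starts or in ZFP57 hexamers, and the 3 of lowest p per area. CpGs named beyond this rule (in YY1 motifs, 6727344, 6727577, 6727669 and 6696785) were chosen after their values were seen. Snrpn had no CpG to test, so 2 comparison imprints were adjusted together. Clone numbers do not pair lines across families: over all CpGs, deviations of same-numbered lines from their family means had correlations of -0.0043 to 0.0035. Alternatives were other windows, depths, summaries and left-out lines. Python 3.11.15, numpy 2.4.6, scipy 1.17.1, statsmodels 0.14.6 and numba 0.67.0 were used.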

Additional observations from a re-analysis of the deposited data

Results flagged for a closer look

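Among 80 groups of 7 lines examined, 5 had a line far from the other 6, where chance gives about 1 in 20 such groups. In Usp29 beyond the promoter, MEF-2 line 3 was at 32.0%, the lowest of its family. The distance of promoter CpGs from 50% was 17.7 points in MEF-1 line 3, the largest of its family. At the Zim1 CpG 6696263, MEF-2 line 3 was at 8% and the other 6 MEF-2 lines at 0%. This rests on 2 methylated of 235 reads over the 7 lines, and the MEF-2 parental library was at 12%. At the Peg3 CpG 6727621, MEF-2 line 1 was at 38.5%, below the others. At the Usp29 CpG 6732323, MEF-1 line 4 was at 93.1%, below the other MEF-1 lines.

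The departure of the promoter level from the parental library, MEF-1 minus MEF-2, was -6.16 points (exact permutation test, p = 0.0449). Each departure is taken from a single parental library, whose error this p leaves out, and neither passed its own test. By the same exact permutation test it was -10.4 in the window of 1 kb (p = 0.00991) and -4.16 in that of 4 kb (p = 0.0408). It was -5.33 with at least 5 reads (exact permutation p = 0.0874), -4.92 with the median of CpG levels (p = 0.147), -1.85 with pooled reads (p = 0.473) and -1.59 with at least 20 reads (p = 0.618). The call thus depended on how the level was set.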

How the results depend on the processing

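The promoter difference between families kept its direction and its side of the threshold under all alternatives run, from 7.73 points (window of 1 kb) to 13.6 points (window of 4 kb) and 9.77 to 12.3 points with single lines left out. The windows hold different CpGs. That of 1 kb had 39, in clusters 2 and 3 only. The window of 4 kb had 76 and took in the 19 Peg3 CpGs beyond the promoter. At least 20 reads left 24 of the 52. Clone numbers pair no lines across families. With the replicate block by clone number, the promoter difference was 11.1 points (exact sign-flip permutation test, p = 0.0156), and 34 instead of 43 member CpGs were called (17.2% instead of 20.2% of all CpGs). Among levels and coverage, the block changed no other call than that of chromosome 7 (-0.0920, p = 0.0625 by the exact permutation test). All 4 areas kept their calls, with Usp29 beyond the promoter at 5.38 points without the CG repeat (added after seeing the data). With at least 20 reads, Peg3 beyond the promoter was at 35.8 points instead of 21.9, and Usp29 beyond the promoter at 6.51 instead of 10.4. The causes of the following changes were not tested.

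The MEF-1 clonal minus parental difference reversed to 0.535 with pooled reads and 0.591 with the median of CpG levels. The MEF-2 one passed the threshold at 6.68 (window of 1 kb) and 5.52 (median) but was 2.38 with pooled reads and 0.533 with at least 20 reads, and with single lines left out it was 3.68 to 5.86, passing only without MEF-2 line 4. The faithful share reversed to 2.94 (at least 20 reads), 0.363 (wider windows of 0 to 20%, 30 to 70% and 80 to 100%) and 9.68 (parental level 40 to 60%), and fell to -8.09 when thinned to 10 reads (exact permutation p = 0.00769). The promoter exceeded Kcnq1ot1 past the threshold by 13.7 (window of 4 kb), 25.1 (at least 20 reads) and 8.65 (pooled reads), and by 3.40 to 5.37 with single lines left out, passing without MEF-1 line 3 (5.37) or MEF-2 line 4 (5.29). On average over the 14 lines the promoter exceeded H19 by 14.2, 15.5 and 9.53 under the same 3 settings. In the window of 1 kb both differences were smaller, 0.974 for Kcnq1ot1 and 1.62 for H19 (exact permutation test, adjusted p = 0.678 for each).

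The methylated read depth difference lost its call at 0.0227 (window of 1 kb), 0.0661 (at least 20 reads) and 0.0382 (without MEF-1 lines 1, 4 and 5), and the unmethylated one at -0.0964 (window of 1 kb) and -0.127 (without the 4 lines of shifted coverage, added after seeing the data). Member CpGs called between families were 22 of the 78 members with at least 20 reads, where 23.2% of all were called, and 28 without the shifted lines, where 11.8% of all were called. Thinned to 10 reads, Fisher's exact test called 0 members in each line, as it did 0 of all 1203687 CpGs. With at least 20 reads it called, of the same 78 members, 3 in MEF-1 line 1 (3.09% of all CpGs), 5 in MEF-1 line 6 (7.54%), 3 in MEF-2 line 2 (9.64%) and 5 in MEF-2 line 5 (11.4%). The difference at CpG 6729287, not called, reversed to -1.06 without the shifted lines. With 26 to 39 reads per CpG, single CpGs are limited by counting error, and the unit of replication is the line.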
